A study of Mus musculus with 16 samples.

Results

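The SLC25 genes encode the mitochondrial solute carriers, and they were taken as all genes of the counts table whose symbol is Slc25a followed by a number and whose mean count over the 16 libraries was 50 or more. Of 47 such symbols among 24454 genes, 38 met the rule. The lowest inside it were Slc25a47 with a mean of 122.5 counts and Slc25a14 with 153.6, and the highest outside it were Slc25a53 with 34.6 and Slc25a41 with 27.4. The other 7 below the rule were Slc25a48 (19.8), Slc25a2 (9.6), Slc25a43 (6.4), Slc25a18 (3.8), Slc25a21 (2.2), Slc25a31 (1.6) and Slc25a54, which had 0 counts. All 38 members passed the filter on low counts and were among the 15487 genes tested.

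Gastrocnemius muscle, a mainly fast calf muscle, was taken from mice aged 3 months and its poly(A) RNA was sequenced. HSALR mice are homozygous mice of the LR20b line on the FVB/N background, with an HSA transgene, the human skeletal actin gene, that holds a long CTG repeat. The transgene is expressed in skeletal muscle, so these mice, which are all of a single line, model the repeat RNA of myotonic dystrophy type I in that tissue. FVB/N mice without the transgene were the controls. Mice of each genotype received either vehicle, which the labels write as CTRL, or AICAR at 500 mg/kg for 7 days. AICAR is taken up by cells and turned into an AMP analogue that activates AMP-activated protein kinase (AMPK). There were 3 control mice given vehicle (S445, S446 and S450), 3 control mice given AICAR (S447, S448 and S449), 5 HSALR mice given vehicle (S451, S452, S453, S458 and S459) and 5 HSALR mice given AICAR (S454, S455, S460, S462 and S463). Values per mouse are given in this order.

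Most carriers of the SLC25 family sit in the inner mitochondrial membrane and exchange or import small solutes, among them adenine nucleotides, phosphate, carboxylates, amino acids, cofactors, acylcarnitines and iron. In muscle the ADP/ATP carrier and the phosphate carrier serve ATP synthesis, and the aspartate-glutamate and oxoglutarate-malate carriers complete the malate-aspartate shuttle that brings reducing equivalents from the cytosol into the matrix. AMPK is known for promoting the oxidative programme of muscle, including the synthesis of mitochondrial proteins.

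Library totals lay between 64890014 and 81987726 counts, and the members together took 0.58% to 0.769% of them. Levels are given as CPM, counts scaled to the TMM-corrected library size, and levels of different genes are compared only as CPM per kb of gene length. Per length, Slc25a4, the muscle ADP/ATP carrier, was the highest member with a mean of 3552 CPM per kb over all mice. It was followed by the phosphate carrier Slc25a3 with 558, the aspartate-glutamate carrier Slc25a12 with 243, the oxoglutarate carrier Slc25a11 with 205 and the second ADP/ATP carrier Slc25a5 with 40.4. The lowest was Slc25a13, the liver-type partner of Slc25a12, with 0.677. In each group Slc25a4 alone gave between 71.8% and 72.7% of the members' summed CPM per kb. The members' summed CPM lay between 6046 and 6265 in control mice given vehicle, 7295 and 7526 in control mice given AICAR, 5582 and 6389 in HSALR mice given vehicle, and 7297 and 7824 in HSALR mice given AICAR. In both genotypes the mice given AICAR lay above all mice given vehicle.

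**Figure D1:**
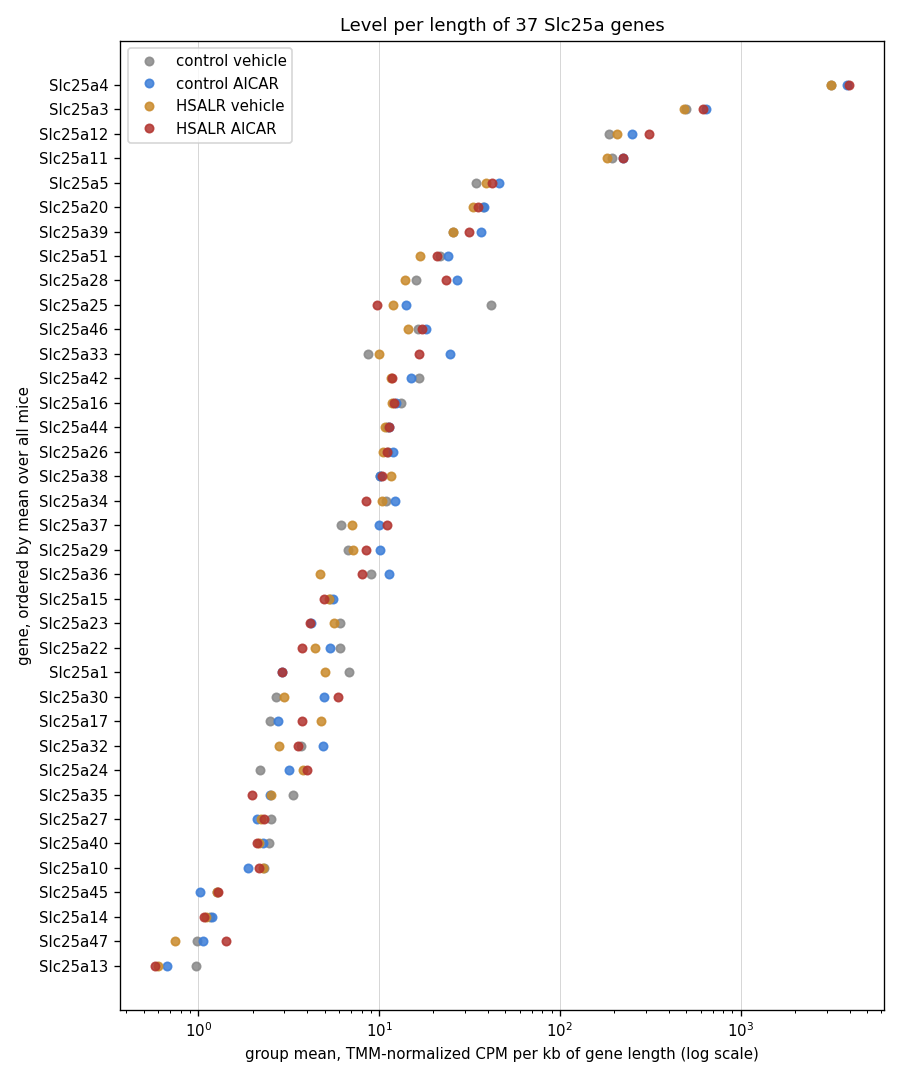
Group means of 37 of the 38 Slc25a genes in TMM-normalized CPM per kb of gene length, on a log axis, ordered by the mean over all mice. Slc25a4, Slc25a3, Slc25a12 and Slc25a11 stand above the other members in every group.

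The defining genes of skeletal muscle (Acta1, Ckm, Mylpf, Tnnt3 and Myh4) summed to between 95230 and 148400 CPM in every library. RNA of skin was present in some libraries: 8 epidermal genes (Krt5, Krt14, Krt15, Krt1, Lor, Flg2, Dsg1a and Krtdap) summed to 0.612 to 187.4 CPM in HSALR mice given vehicle, 0.242 to 0.371 in HSALR mice given AICAR, 0.256 to 92.3 in control mice given vehicle and 0.244 to 104.2 in control mice given AICAR. Krt14 exceeded 1 CPM in 4 of 5 HSALR mice given vehicle (all but S451), in 0 of 5 HSALR mice given AICAR, in control mouse S450 given vehicle and in control mouse S448 given AICAR. In HSALR mice given AICAR, Flg2 and Dsg1a were at 0, Krtdap lay between 0.182 and 0.371 CPM, and the other 5 did not exceed 0.0686 CPM. All 8 were lower after AICAR than after vehicle in HSALR mice (100%, against 13% of all genes tested). In muscle pieces, fewer cells of a type and less RNA per cell cannot be told apart.

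After AICAR more carriers rose than fell in both genotypes. In HSALR mice, 15 of 38 members were higher after AICAR than after vehicle (39.5%, against 13.7% of all genes tested) and 4 were lower (10.5%, against 13% of all genes). In control mice 12 were higher (31.6%, against 8.4% of all genes) and 1 was lower (2.63%, against 4.77%). A member is called higher or lower here where the adjusted p of edgeR's quasi-likelihood test was under 0.05. The median log2 fold change over the 38 members was 0.07 in HSALR mice and 0.13 in control mice, beside -0.02 and -0.01 over all genes tested. As a reference for respiratory genes, 28 of 38 nuclear complex I subunits were higher and 0 lower in HSALR mice (median 0.23), and 11 higher and 0 lower in control mice (median 0.18).

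**Figure D2:**
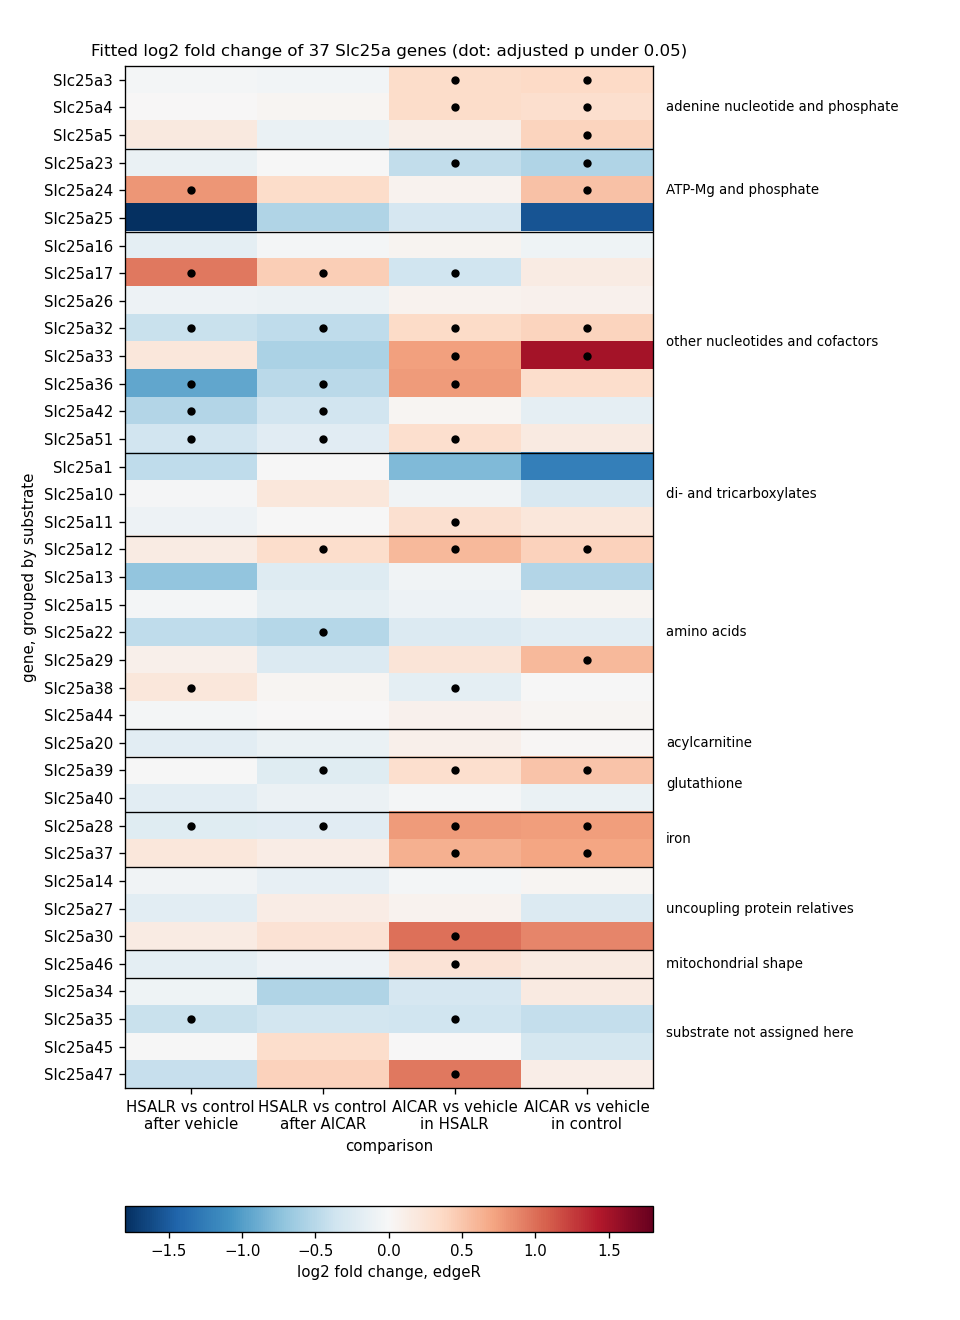
Fitted log2 fold changes of 37 of the 38 Slc25a genes in 4 comparisons, with genes in rows grouped by what they carry. Red is higher and blue lower in the first-named group, and a black dot marks an adjusted p under 0.05. Both AICAR columns are red with dots at the iron carriers Slc25a28 and Slc25a37 and at Slc25a4 and Slc25a3, and Slc25a5 has a dot in control mice alone.

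Fewer members, and fewer genes in all, were called when the libraries with epidermal RNA were left out. The 6 libraries above 1 CPM of Krt14 include 4 of the 5 HSALR mice given vehicle, so this fit rests on mouse S451 alone in that group and assumes that it varies as the other groups do. In HSALR mice 4 members were then higher after AICAR (10.5%, against 2.78% of all genes tested), namely Slc25a4, Slc25a12, Slc25a28 and Slc25a30, and 1 was lower (2.63%, against 2.99%), the citrate carrier Slc25a1 at -1.41 (adjusted p = 0.0271). In control mice 6 were higher (15.8%, against 3.15%), among them Slc25a12, Slc25a28, Slc25a33, Slc25a37 and Slc25a39, and 0 lower (0%, against 1.32%). Of the 19 members called with all libraries in HSALR mice, 18 kept their direction. The median size of the 19 changes was 0.36 on the log2 scale with all libraries and 0.44 in this fit, and their median SE 0.08 and 0.15. In control mice all 13 called members kept their direction in this fit, with median sizes of 0.53 and 0.46 and median SEs of 0.11 and 0.14. With the summed log2 CPM of the epidermal genes as a covariate, 9 of the 19 were still called in HSALR mice (Slc25a3, Slc25a4, Slc25a11, Slc25a12, Slc25a28, Slc25a36, Slc25a37, Slc25a47 and Slc25a51), all of them higher (23.7% higher and 0% lower, against 6.65% and 5.54% of all genes). In control mice 12 of 13 were still called (28.9% higher and 2.63% lower, against 7.82% and 4.53% of all genes). The median size of the 19 changes was then 0.35 with a median SE of 0.12. The part of the epidermal RNA in these differences was not tested. Among the fits that left out 1 mouse, the count was 16 to 19 in HSALR mice and 8 to 11 in control mice, the lowest without mouse S448.

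The iron carriers rose in both genotypes. Slc25a28 (mitoferrin-2, chr19:43663801-43675006 in GRCm38.p6) and Slc25a37 (mitoferrin-1, chr14:69241848-69285544) bring iron into the matrix for haem and iron-sulphur cluster synthesis. Slc25a28 stood at 25.4, 24.4 and 24.2 CPM in control mice given vehicle and at 41.9, 37.8 and 45.3 after AICAR. In HSALR mice it stood at 20.1, 21.5, 21, 21.5 and 22.1 after vehicle and at 37.5, 35.4, 36.3, 36.5 and 34.7 after AICAR. The groups given vehicle and AICAR did not overlap in either genotype, and within each genotype the mice of a group lay close together. The log2 fold change was 0.76 ± 0.06 (SE), adjusted p = 8.03e-06 in control mice and 0.76 ± 0.05 (SE), adjusted p = 9.38e-08 in HSALR mice. Slc25a37 stood at 27, 26 and 23.6 CPM in control mice given vehicle and at 37.1, 38 and 49.8 after AICAR. In HSALR mice it stood at 28.8, 31.2, 29.8, 28.6 and 28.6 after vehicle and at 46, 43.5, 40.2, 45.2 and 54.5 after AICAR. Again no vehicle mouse reached a mouse given AICAR, with log2 fold changes of 0.70 ± 0.11 (SE), adjusted p = 0.00111 in control mice and 0.64 ± 0.09 (SE), adjusted p = 0.000105 in HSALR mice. Exons of Slc25a37 overlap Gm27223 and Gm31748 on the other strand, and the sources used here do not say whether counting used the strand.

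The carriers of pyrimidine nucleotides Slc25a33 (chr4:149744036-149774267) and Slc25a36 (chr9:97075281-97111041), which supply the matrix for the synthesis of mitochondrial DNA and RNA, both rose after AICAR in HSALR mice. Slc25a33 stood at 13.7, 19 and 16.4 CPM in control mice given vehicle and at 55.1, 42 and 41.9 after AICAR. In HSALR mice it stood at 15.2, 17.3, 19.6, 19.7 and 22.4 after vehicle and at 34.9, 28.4, 45.7, 20.7 and 26.6 after AICAR. The control groups lay apart, whereas in HSALR mice the AICAR mouse S462 fell among the vehicle mice. The log2 fold change was 1.50 ± 0.23 (SE), adjusted p = 0.000879 in control mice, the largest increase of any member there, and 0.73 ± 0.18 (SE), adjusted p = 0.00681 in HSALR mice. Slc25a36 stood at 18.1, 17.1, 15, 10.3 and 11.8 CPM in HSALR mice given vehicle and at 26.3, 26.1, 26.6, 21.6 and 22.7 after AICAR, with no overlap and a log2 fold change of 0.77 ± 0.14 (SE), adjusted p = 0.00114. In control mice it stood at 26.7, 23.5 and 33.1 after vehicle and at 30.1, 35.8 and 38 after AICAR, where the groups overlapped and the log2 fold change was 0.32 ± 0.18 (SE), adjusted p = 0.269. Without the 6 libraries above 1 CPM of Krt14 the HSALR changes of Slc25a36 and Slc25a33 missed the threshold at 0.44 and 1.04 (adjusted p = 0.131 and 0.136). Exons of Slc25a33 overlap Gm13068 on the other strand.

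Promoter windows of 300 bases, from 250 bases before a RefSeq transcript start (GRCm38.p6), were held for 29 of the 38 members. They were searched on both strands for AAGGTCA (the half-site of oestrogen-related receptors), GCGCATGCG (the core of the NRF1 site), TGACGTCA (the cAMP response element), CACGTG (the E-box) and CCAAT, of which the last 2 were added after sequences had been read. AAGGTCA was found in 1 of 29 members (3.45%, Slc25a34) and in 4.68% of 18170 genes with a window, and GCGCATGCG in 0 of 29 and 2.59%. TGACGTCA was found in Slc25a25 and Slc25a36 (6.9% of members and 2.61% of all genes), CACGTG in 6 members (20.7% and 9.16%) and CCAAT in 17 (58.6% and 42.3%). Both pyrimidine carriers held CACGTG and CCAAT, and Slc25a36 also TGACGTCA. Slc25a28 held CCAAT at 3 places. Of the 6 members with a window that were higher after AICAR in both genotypes, 3 held CCAAT (50%) and 1 held CACGTG (16.7%). Slc25a1, Slc25a13, Slc25a14 and Slc25a15 also held CACGTG and were not called after AICAR with all libraries. The windows of Slc25a28, Slc25a33 and Slc25a36 are given as examples, 5′ to 3′ on the strand of the gene, with the matches in capitals. They lie on the minus strand at chr19:43674832-43675131 (Slc25a28), chr4:149774218-149774517 (Slc25a33) and chr9:97110992-97111291 (Slc25a36).
Slc25a28: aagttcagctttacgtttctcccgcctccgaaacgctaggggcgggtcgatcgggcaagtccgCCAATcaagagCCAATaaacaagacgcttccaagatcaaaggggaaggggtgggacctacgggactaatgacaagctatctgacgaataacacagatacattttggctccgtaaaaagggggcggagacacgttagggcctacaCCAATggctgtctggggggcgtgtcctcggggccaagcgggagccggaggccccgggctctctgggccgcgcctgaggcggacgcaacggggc
Slc25a33: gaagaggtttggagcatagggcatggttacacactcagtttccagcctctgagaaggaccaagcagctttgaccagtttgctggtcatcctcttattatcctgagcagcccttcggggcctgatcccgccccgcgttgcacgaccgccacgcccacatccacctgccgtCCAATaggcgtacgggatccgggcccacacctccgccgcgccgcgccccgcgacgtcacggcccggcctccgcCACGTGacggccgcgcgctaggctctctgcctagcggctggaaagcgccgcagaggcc
Slc25a36: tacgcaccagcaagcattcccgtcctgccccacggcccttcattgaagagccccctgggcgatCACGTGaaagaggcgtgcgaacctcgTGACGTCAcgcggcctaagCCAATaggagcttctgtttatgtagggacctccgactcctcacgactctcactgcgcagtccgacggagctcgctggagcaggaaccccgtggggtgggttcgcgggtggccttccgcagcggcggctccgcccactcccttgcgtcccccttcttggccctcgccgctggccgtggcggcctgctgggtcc
The E-box of Slc25a33 began 8 bases and that of Slc25a36 187 bases before the start. The cAMP response element of Slc25a36 began 161 bases before it, and the CCAAT boxes of Slc25a28 began 187, 176 and 43 bases before it. A match of letters is no evidence that a factor binds there.

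**Figure D3:**
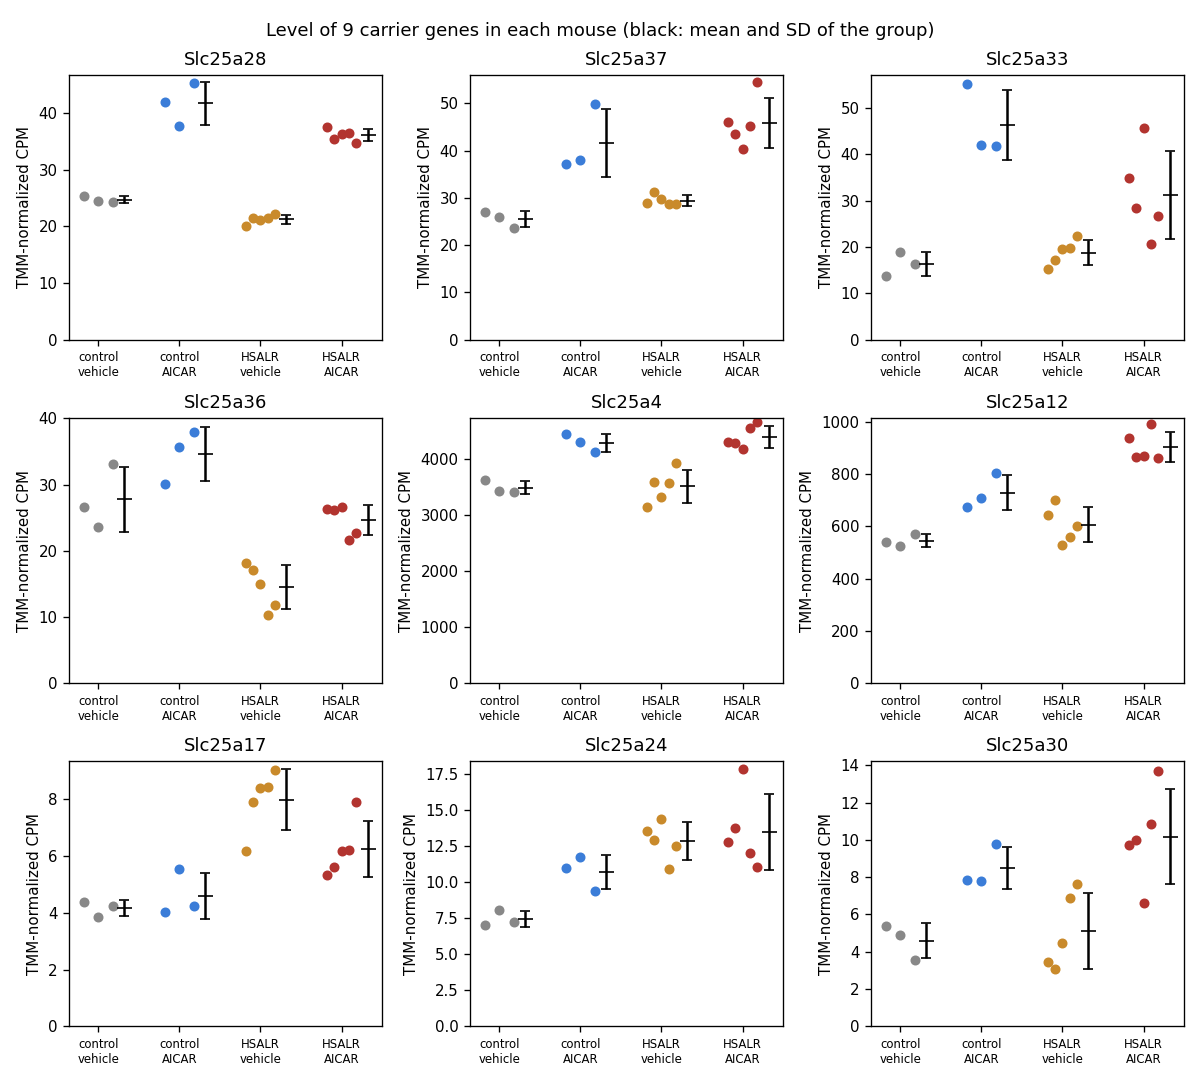
TMM-normalized CPM of 9 Slc25a genes in each mouse by group, with the group mean and SD in black. Slc25a28 and Slc25a37 separate AICAR from vehicle in both genotypes, and Slc25a36 is lowest in HSALR mice given vehicle (10.3 to 18.1 CPM).

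Of the 3 carriers of ADP, ATP and phosphate, 2 were higher after AICAR in HSALR mice (66.7%, against 13.7% of all genes tested) and 3 in control mice (100%, against 8.4%). Slc25a4, which exports ATP from the matrix in exchange for ADP, stood at 3618, 3436 and 3409 CPM in control mice given vehicle and at 4450, 4295 and 4120 after AICAR. In HSALR mice it stood at 3140, 3591, 3323, 3567 and 3930 after vehicle and at 4308, 4281, 4180, 4552 and 4656 after AICAR. The vehicle and AICAR groups did not overlap in either genotype. The log2 fold change was 0.32 ± 0.06 (SE), adjusted p = 0.00114 in HSALR mice and 0.30 ± 0.08 (SE), adjusted p = 0.0197 in control mice, where the call was lost without any 1 of mice S446, S450, S447 or S448 (log2 fold changes 0.27 to 0.29, adjusted p = 0.0564 to 0.068). Slc25a3, which brings phosphate into the matrix, stood at 795, 679 and 794 CPM in control mice given vehicle, 928, 989.5 and 982 in control mice given AICAR, 733, 784, 672, 760.5 and 741 in HSALR mice given vehicle and 948, 918, 907, 983 and 897 in HSALR mice given AICAR. Its groups did not overlap by treatment, and its log2 fold change was 0.35 ± 0.07 (SE), adjusted p = 0.00539 in control mice and 0.33 ± 0.06 (SE), adjusted p = 0.00059 in HSALR mice. In control mice Slc25a3 lost its call with only the compared groups fitted and without the 6 libraries above 1 CPM of Krt14 (log2 fold changes 0.30 to 0.36 over 12 alternatives). In HSALR mice it lost the call without those libraries (0.26 to 0.35). Slc25a5, the ADP/ATP carrier of many other tissues, stood at 40.7, 44.2 and 49.2 CPM in control mice given vehicle and at 61.6, 61.9 and 54.3 after AICAR, and at 52.5, 51.9, 52.3, 53.2 and 42.4 and 47.7, 47.4, 64.4, 56.1 and 56.9 in the respective HSALR groups. It was called in control mice, at 0.41 ± 0.12 (SE), adjusted p = 0.0304, and lost that call without any 1 of mice S445, S446, S447 or S448 (log2 fold changes 0.35 to 0.40, adjusted p = 0.0762 to 0.118). In HSALR mice its log2 fold change was 0.11 ± 0.09 (SE), adjusted p = 0.393. The annotation holds a processed pseudogene, Slc25a5-ps, so that reads of Slc25a5 could be placed elsewhere.

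In the malate-aspartate shuttle, Slc25a12 (chr2:71274270-71367781), which exports aspartate for glutamate and is regulated by calcium, stood at 644, 701, 529, 559.6 and 600.1 CPM in HSALR mice given vehicle and at 939, 865, 869, 991 and 861 after AICAR. In control mice it stood at 540.1, 525 and 571 after vehicle and at 674, 708 and 804 after AICAR. No group given AICAR overlapped the vehicle group of its genotype, with log2 fold changes of 0.58 ± 0.08 (SE), adjusted p = 9.02e-05 in HSALR mice and 0.42 ± 0.10 (SE), adjusted p = 0.0117 in control mice, where the call was lost without mouse S449 (log2 fold change 0.34, adjusted p = 0.0592). Slc25a11, which exchanges oxoglutarate for malate, stood at 341, 345, 310.1, 356 and 345 CPM in HSALR mice given vehicle and at 408, 422, 399, 447.1 and 404 after AICAR, at 0.29 ± 0.06 (SE), adjusted p = 0.00141. In control mice it stood at 399, 344 and 341 after vehicle and at 424, 428 and 401 after AICAR, which also did not overlap, at 0.21 ± 0.07 (SE), adjusted p = 0.0675. Exons of Slc25a11 overlap Rnf167 on the other strand.

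Of the shuttle enzymes that work with these carriers and with the glycerol phosphate shuttle, 4 of 6 were higher after AICAR in HSALR mice (66.7%, against 13.7% of all genes tested) and 3 of 6 in control mice (50%, against 8.4%). None was lower, and all 6 had positive log2 fold changes in both genotypes (medians 0.50 and 0.28). Between the genotypes, 0 were higher and 2 lower in HSALR mice after vehicle (0% and 33.3%, against 15.4% and 11.5% of all genes), and 1 was higher and 0 lower after AICAR (16.7% and 0%, against 12.2% and 9.64%), with medians of -0.13 and -0.16. The mitochondrial aminotransferase Got2 rose from 500 ± 29.5 to 757 ± 29.8 CPM (SD, n = 5 each) in HSALR mice at 0.60 ± 0.07 (SE), adjusted p = 5.07e-05, and in control mice from 456 ± 75.5 to 577 ± 12.2 CPM (SD, n = 3 each) at 0.34 ± 0.09 (SE), adjusted p = 0.0273. It was the enzyme that was higher in HSALR than in control mice after AICAR, at 0.39 ± 0.09 (SE), adjusted p = 0.00478. The cytosolic glycerol phosphate dehydrogenase Gpd1 rose at 0.68 ± 0.11 (SE), adjusted p = 0.00055 in HSALR mice and at 0.47 ± 0.15 (SE), adjusted p = 0.046 in control mice. Its mitochondrial partner Gpd2 rose at 0.71 ± 0.11 (SE), adjusted p = 0.000239 in HSALR mice and stood at 0.18 ± 0.14 (SE), adjusted p = 0.406 in control mice. These 2 dehydrogenases were the enzymes lower in HSALR than in control mice after vehicle, Gpd2 at -0.78 ± 0.12 (SE), adjusted p = 0.000216 and Gpd1 at -0.40 ± 0.13 (SE), adjusted p = 0.0322. The HSALR mice given vehicle are shared by that comparison and the one of AICAR in HSALR mice.

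Of the 2 glutathione carriers 1 was higher after AICAR in each genotype (50%, against 13.7% of all genes tested in HSALR and 8.4% in control mice). Of the 9 carriers of other nucleotides and cofactors, the pyrimidine carriers included, 5 were higher and 1 lower in HSALR mice (55.6% and 11.1%, against 13.7% and 13% of all genes), and 3 were higher and 0 lower in control mice (33.3% and 0%, against 8.4% and 4.77%). Slc25a39, a glutathione carrier, stood at 44.8, 42.2, 39.8, 47.5 and 38.3 CPM in HSALR mice given vehicle and at 52.5, 51.8, 51.8, 56.9 and 50.1 after AICAR, and at 40.9, 45.2 and 42.4 and 59, 59.5 and 65.3 in the control groups. The groups did not overlap by treatment, at 0.31 ± 0.06 (SE), adjusted p = 0.00168 in HSALR mice and 0.52 ± 0.08 (SE), adjusted p = 0.000718 in control mice. Its paralogue Slc25a40 was at -0.04 ± 0.07 (SE), adjusted p = 0.741 in HSALR mice and -0.11 ± 0.09 (SE), adjusted p = 0.471 in control mice. In HSALR mice Slc25a39 lost its call with the epidermal covariate and without the 6 libraries above 1 CPM of Krt14 (log2 fold changes 0.23 to 0.31 over 12 alternatives). Slc25a32, the mitochondrial folate and FAD carrier, was higher at 0.34 ± 0.10 (SE), adjusted p = 0.0172 in HSALR mice. There Slc25a32 also lost its call with the epidermal covariate and without these libraries (log2 fold changes 0.24 to 0.36 over 12 alternatives). In control mice it was at 0.40 ± 0.13 (SE), adjusted p = 0.0479, which was lost without any 1 of mice S445, S446, S450, S448 or S449 (log2 fold changes 0.29 to 0.48, adjusted p = 0.0507 to 0.202).

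Further members passed the threshold in a single genotype, although no difference between the genotypes was called. Slc25a30, a relative of the uncoupling proteins, stood at 3.44, 3.08, 4.48, 6.91 and 7.65 CPM in HSALR mice given vehicle and at 9.75, 10, 6.6, 10.8 and 13.7 after AICAR. Here mouse S460 fell among the vehicle mice, and the log2 fold change of 0.99 ± 0.24 (SE), adjusted p = 0.00756 was the largest in this comparison. In control mice it stood at 5.36, 4.9 and 3.53 and 7.86, 7.8 and 9.8, which did not overlap, at 0.88 ± 0.32 (SE), adjusted p = 0.0769. Slc25a47, known mainly from liver, was low, with 1.06, 1.09, 1.1, 1.18 and 1.43 CPM in HSALR mice given vehicle and 2.26, 1.99, 2.53, 1.5 and 2.98 after AICAR, at 0.94 ± 0.16 (SE), adjusted p = 0.000608 and without overlap. In control mice it stood at 1.45, 1.7 and 1.52 and 1.88, 1.57 and 1.62, at 0.12 ± 0.20 (SE), adjusted p = 0.761. Slc25a51, the NAD carrier, was called in HSALR mice at 0.31 ± 0.05 (SE), adjusted p = 0.000636, and Slc25a46, an outer membrane protein of the family that acts in mitochondrial dynamics, at 0.25 ± 0.07 (SE), adjusted p = 0.0135. For both, vehicle and AICAR groups did not overlap in HSALR mice or in control mice, where Slc25a51 stood at 0.16 and Slc25a46 at 0.16 (adjusted p = 0.124 and 0.246). Without the 6 libraries above 1 CPM of Krt14 their changes in HSALR mice were 0.14 for Slc25a51 and 0.11 for Slc25a46 (adjusted p = 0.331 and 0.485), and that of Slc25a30 was 1.56 (adjusted p = 0.0297). The epidermal covariate and scaling by library size alone also ended the call of Slc25a46, at 0.22 and 0.17 (adjusted p = 0.138 and 0.0946), and the covariate that of Slc25a30, at 0.92 (adjusted p = 0.102). Exons of Slc25a46 overlap B930094E09Rik on the other strand. On the same strand, exons of Slc25a51 share 125 bases with the miRNA gene Gm25692, and those of Slc25a47 share 5 bases with Mir345. In control mice the basic amino acid carrier Slc25a29 was called at 0.59 ± 0.16 (SE), adjusted p = 0.022, lost without any 1 of mice S450 or S447 (log2 fold changes 0.48 to 0.50, adjusted p = 0.0805 to 0.0875), and the ATP-Mg/phosphate carrier Slc25a24 at 0.53 ± 0.15 (SE), adjusted p = 0.0325, lost without any 1 of mice S445, S450, S447 or S448 (log2 fold changes 0.44 to 0.51, adjusted p = 0.0738 to 0.12).

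Few members fell after AICAR. Slc25a23, an ATP-Mg/phosphate carrier regulated by calcium, stood at 18.6, 20.3 and 22.6 CPM in control mice given vehicle and at 16.7, 13.9 and 11.7 after AICAR. In HSALR mice it stood at 19.9, 16.5, 16.6, 20.3 and 21.2 and 12.5, 12.4, 15.7, 15.5 and 13.8. The groups did not overlap in either genotype. It fell at -0.44 ± 0.11 (SE), adjusted p = 0.00733 in HSALR mice and at -0.54 ± 0.14 (SE), adjusted p = 0.0182 in control mice, where the call was lost without any 1 of mice S450, S448 or S449 (log2 fold changes -0.54 to -0.42, adjusted p = 0.052 to 0.0871). In HSALR mice the call was lost with the epidermal covariate and without the 6 libraries above 1 CPM of Krt14. In control mice it was lost without those libraries and with only the compared groups fitted. Over 12 alternatives the log2 fold change was -0.52 to -0.42 in HSALR mice and -0.59 to -0.46 in control mice. Exons of Slc25a23 overlap the antisense gene Gm17168. The other lower members passed the threshold in HSALR mice, close to it and with overlapping groups. Slc25a35 was at -0.36 ± 0.12 (SE), adjusted p = 0.035, lost without any 1 of mice S451, S453, S458, S459, S454, S455, S460 or S462 (log2 fold changes -0.37 to -0.29, adjusted p = 0.0538 to 0.0864). In control mice Slc25a35 was at -0.43 ± 0.15 (SE), adjusted p = 0.0702, with groups that did not overlap, and the difference between the genotypes was 0.07 ± 0.19 (SE), adjusted p = 0.893. Slc25a17, the peroxisomal carrier of coenzyme A and other nucleotides, was at -0.36 ± 0.12 (SE), adjusted p = 0.0448, lost without any 1 of mice S452, S453, S458, S459, S454, S455, S460 or S462 (log2 fold changes -0.36 to -0.30, adjusted p = 0.0676 to 0.112), and at 0.15 in control mice (adjusted p = 0.596). Slc25a38, the glycine carrier for haem synthesis, was at -0.18 ± 0.06 (SE), adjusted p = 0.0471, lost without any 1 of mice S451, S458, S459, S455, S460, S462 or S463 (log2 fold changes -0.19 to -0.14, adjusted p = 0.0529 to 0.101), and at -0.01 in control mice (adjusted p = 0.957). Without the 6 libraries above 1 CPM of Krt14 the change of Slc25a17 was 0.01.

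The AICAR effects in HSALR and in control mice share no animals. They had the same sign in 30 of 38 members (78.9%, against 68% of all genes tested), and across the 38 genes, which are not independent replicates, Pearson's r was 0.74 and Spearman's rho 0.80. In all, 10 members were called in both genotypes, all in the same direction, which is 26.3% of the members, against 7.83% of all genes tested. They make up 52.6% of the members' calls in HSALR mice and 76.9% of those in control mice, beside 29.4% and 59.5% for the calls of all genes. The difference between the effects of AICAR in the 2 genotypes was called by edgeR for 0 of 38 members, against 0.691% of all genes tested (107 of 15487). At an unadjusted p under 0.05 there were 7 members (18.4%, against 15% of all genes tested), and DESeq2, the edgeR likelihood ratio test and limma voom called 0 as well. Of these 7, Slc25a47 had the smallest adjusted p, with a difference of 0.83 ± 0.26 (SE), adjusted p = 0.151. Slc25a33 differed by -0.77 ± 0.29 (SE), adjusted p = 0.229. The SE of the difference was 0.15 at the median and 0.06 to 0.99 over the members.

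**Figure D4:**
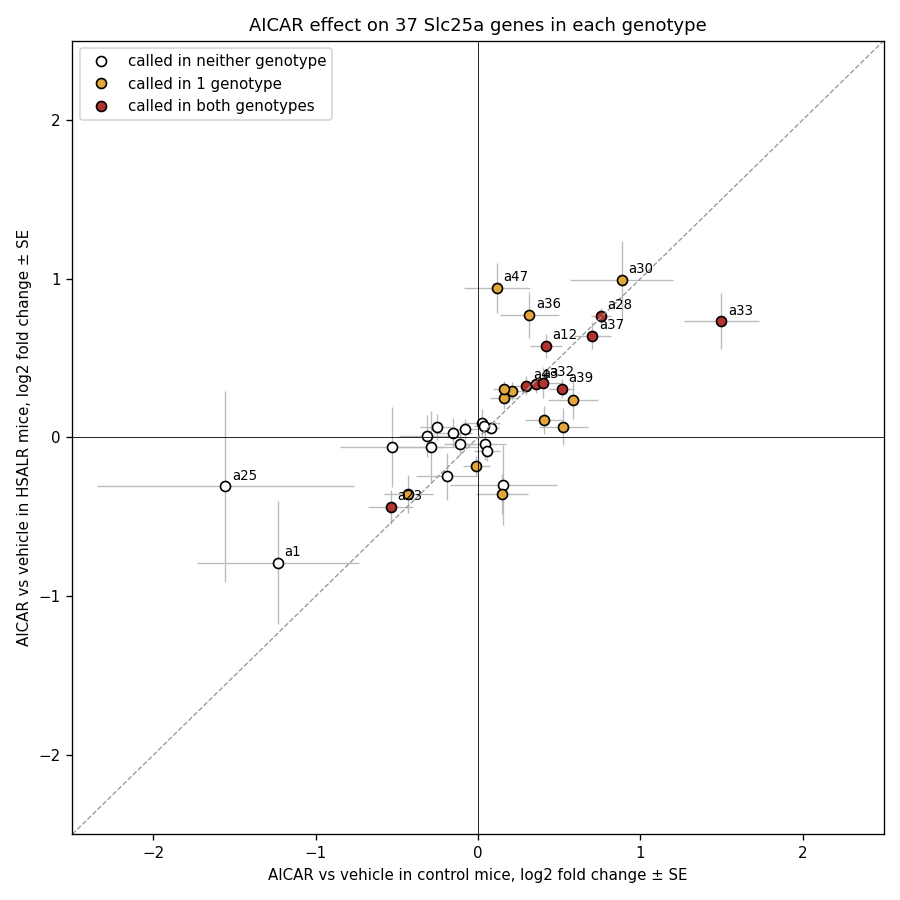
Fitted log2 fold change of AICAR against vehicle in control mice (horizontal) and in HSALR mice (vertical) for 37 of the 38 Slc25a genes, with SEs as bars and the line of equal effects dashed. Genes called in both genotypes are filled red (9 of the 10 are drawn), and Slc25a33 lies farthest right at 1.50.

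After vehicle, 3 of 38 members were higher in HSALR than in control mice (7.89%, against 15.4% of all genes tested) and 6 were lower (15.8%, against 11.5%). Of the 9 carriers of nucleotides other than ADP and ATP and of cofactors, 1 was higher and 4 were lower (11.1% and 44.4%, against the same shares of all genes). The median over the members was -0.09, beside 0.01 over all genes. The largest difference upward was that of Slc25a17 (chr15:81318921-81360765), with 4.38, 3.84 and 4.25 CPM in control mice and 6.18, 7.92, 8.41, 8.44 and 9.02 in HSALR mice, at 0.94 ± 0.15 (SE), adjusted p = 0.00028. Slc25a24 (chr3:109123149-109168409) stood at 7, 8.09 and 7.23 CPM in control mice and at 13.6, 12.9, 14.4, 10.9 and 12.5 in HSALR mice, at 0.79 ± 0.14 (SE), adjusted p = 0.000651. The genotypes did not overlap for either gene. The 5 HSALR mice given vehicle are also those against which AICAR was compared in HSALR mice. Slc25a38 was also called higher, at 0.21 ± 0.07 (SE), adjusted p = 0.0462, and lost this without any 1 of mice S445, S446, S450, S451, S458 or S459 (log2 fold changes 0.18 to 0.23, adjusted p = 0.0766 to 0.13). Without the 6 libraries above 1 CPM of Krt14, which leaves mouse S451 alone in the HSALR group, 1 of the 9 calls remained (Slc25a42). Slc25a17 was then at 0.58 (adjusted p = 0.169), Slc25a24 at 0.84 (0.0806), Slc25a36 at -0.48 (0.157), Slc25a35 at -0.27 (0.434) and Slc25a51 at -0.17 (0.305). In that fit 4.14% of all genes tested were higher and 1.66% lower, beside 0% and 2.63% of the members. In addition, over the fits that left out 1 mouse the count was 5 to 10, the lowest without mouse S445.

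Of the lower members, Slc25a36 stood at 26.7, 23.5 and 33.1 CPM in control mice given vehicle and at 18.1, 17.1, 15, 10.3 and 11.8 in HSALR mice, with no overlap, at -0.94 ± 0.16 (SE), adjusted p = 0.000525. Slc25a42, which brings coenzyme A into the matrix, stood at 55.1, 57.3 and 46.6 CPM and 41.7, 43.5, 30.3, 31.7 and 36.8, at -0.53 ± 0.10 (SE), adjusted p = 0.00175. Slc25a51 stood at 96.6, 92.8 and 98.4 CPM and 84.3, 75.7, 76.6, 69.3 and 70.2, at -0.35 ± 0.06 (SE), adjusted p = 0.00052. For these 3 the genotypes did not overlap, and the calls were kept whichever single mouse was left out. Slc25a32 was lower at -0.41 ± 0.11 (SE), adjusted p = 0.0139, lost without mouse S445 (log2 fold change -0.33, adjusted p = 0.0873). Slc25a35 was lower at -0.40 ± 0.13 (SE), adjusted p = 0.0358, lost without any 1 of mice S445, S450 or S453 (log2 fold changes -0.41 to -0.34, adjusted p = 0.0561 to 0.131), and its exons overlap Rangrf on the other strand. Slc25a28 was lower by a small step, at -0.21 ± 0.06 (SE), adjusted p = 0.00996, lost without mouse S445 (log2 fold change -0.19, adjusted p = 0.0546), while Slc25a37 was at 0.20 ± 0.10 (SE), adjusted p = 0.152.

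The genotypes also differed in markers of other cells and fibres. After vehicle, all 4 endothelial genes (Pecam1, Cdh5, Kdr and Tek) were lower in HSALR mice (summed level 246 to 271.8 CPM in control and 162.3 to 209.7 in HSALR mice), as were 2 of 4 genes of slow and oxidative fibres, Myh7 and Tnnt1 (sum of the 4 genes 5316 to 10270 and 3864 to 5151 CPM). Of 5 leukocyte genes, Cd68 and Csf1r were higher (summed level 108.4 to 148.7 and 128.2 to 173.2 CPM). None of 6 adipocyte or 4 Schwann cell genes tested was called. After vehicle, 100% of the endothelial and 50% of the fibre genes were thus lower, against 11.5% of all genes tested. Of the leukocyte genes 40% were higher, against 15.4% of all genes. After AICAR, 2 of 4 endothelial genes (50%) and 0 of 4 fibre genes (0%) were lower in HSALR mice, against 9.64% of all genes. The part of these markers in the carrier differences was not tested.

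After AICAR, 2 of 38 members were higher in HSALR than in control mice (5.26%, against 12.2% of all genes tested) and 8 were lower (21.1%, against 9.64%), with a median of -0.11 beside 0.00 over all genes. The 8 epidermal genes summed to 104.2 CPM in control mouse S448, and 5 of them were lower in HSALR mice here (62.5%, against 9.64% of all genes). Without the 6 libraries above 1 CPM of Krt14, of which S448 is the only one in this comparison, 8 of the 10 calls remained (1 higher and 7 lower, 2.63% and 18.4% of the members, against 8.16% and 7.31% of all genes). Slc25a12 was higher, at 0.31 ± 0.09 (SE), adjusted p = 0.0205, with no overlap, and lost this without any 1 of mice S447 or S448 (log2 fold changes 0.26 to 0.29, adjusted p = 0.082 to 0.102). Slc25a17 was higher at 0.44 ± 0.15 (SE), adjusted p = 0.0425, with overlapping groups, lost without any 1 of mice S447, S449, S460, S462 or S463 (log2 fold changes 0.34 to 0.44, adjusted p = 0.0514 to 0.171). Slc25a32, at 12.9, 13.7 and 16.5 CPM in control and 10.8, 9.4, 10.9, 10.3 and 10.8 in HSALR mice given AICAR, was lower at -0.46 ± 0.11 (SE), adjusted p = 0.00847, lost without mouse S449 (log2 fold change -0.35, adjusted p = 0.0568). Slc25a51 was lower at -0.21 ± 0.06 (SE), adjusted p = 0.0223, lost without mouse S449 (log2 fold change -0.16, adjusted p = 0.105).

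The calls of 5 further lower members were also lost without single mice. Slc25a22, a glutamate carrier, was lower at -0.51 ± 0.17 (SE), adjusted p = 0.0409, lost without any 1 of mice S447, S448, S454, S455, S462 or S463 (log2 fold changes -0.50 to -0.44, adjusted p = 0.073 to 0.133). Slc25a36 was lower at -0.49 ± 0.16 (SE), adjusted p = 0.0404, lost without any 1 of mice S448, S449, S454, S455, S462 or S463 (log2 fold changes -0.51 to -0.42, adjusted p = 0.056 to 0.136). Slc25a42 was lower at -0.34 ± 0.11 (SE), adjusted p = 0.031, lost without any 1 of mice S447, S448, S454, S455 or S463 (log2 fold changes -0.34 to -0.29, adjusted p = 0.0585 to 0.124). Slc25a39 was lower at -0.22 ± 0.07 (SE), adjusted p = 0.0319, lost without any 1 of mice S447, S448, S449, S454, S455 or S463 (log2 fold changes -0.25 to -0.17, adjusted p = 0.0505 to 0.136). Slc25a28 was lower at -0.21 ± 0.06 (SE), adjusted p = 0.0153, lost without any 1 of mice S447 or S449 (log2 fold changes -0.20 to -0.14, adjusted p = 0.0536 to 0.0944). No call of this comparison was kept through all fits that left out 1 mouse, and the count ranged from 4, without mouse S447 or S449, to 13, without mouse S460. It was 5 without S448 or S463 and 6 without S454 or S455. Slc25a17, Slc25a28, Slc25a32, Slc25a36, Slc25a42 and Slc25a51 were called in the same direction in both genotype comparisons. The share of all genes called in both was not computed, so this list is no result about the carriers as a set.

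In all, 24 of the 38 members were called in at least 1 of these 4 comparisons (63.2%, against 52.1% of all genes tested) and 14 in none. Of the uncalled, the acylcarnitine carrier Slc25a20, which brings fatty acids to oxidation, stood at 73.2, 63.4 and 63.4 CPM in control mice given vehicle, 73.4, 68.1 and 61.7 in control mice given AICAR, 59.5, 70.3, 49.6, 55.8 and 58 in HSALR mice given vehicle and 57.6, 64.1, 67.6, 67.6 and 55.8 in HSALR mice given AICAR. All 4 groups overlapped, and its log2 fold changes lay between -0.19 and 0.09. Of 6 genes of carnitine uptake and the carnitine shuttle, the acetyltransferase Crat and the plasma membrane carnitine transporter Slc22a5 were higher after AICAR in HSALR mice (33.3%, against 13.7% of all genes), Crat at 0.44 ± 0.05 (SE), adjusted p = 5.63e-05 and at 0.28 ± 0.07 (SE), adjusted p = 0.0151 in control mice. In HSALR mice 0 of the 6 were higher and 2 lower than in control mice after vehicle (0% and 33.3%, against 15.4% and 11.5% of all genes), with all 6 log2 differences negative (median -0.19), and 0 were higher and 1 lower after AICAR (0% and 16.7%, against 12.2% and 9.64%). The lower genes were Crat at -0.30 ± 0.06 (SE), adjusted p = 0.00213 and the muscle carnitine palmitoyltransferase Cpt1b at -0.28 ± 0.08 (SE), adjusted p = 0.0227 after vehicle, and Cpt2, the palmitoyltransferase of the inner membrane, at -0.26 ± 0.09 (SE), adjusted p = 0.0398 after AICAR. Slc25a25, a calcium-regulated ATP-Mg/phosphate carrier, varied widely within groups, with 103, 278 and 149 CPM in control mice given vehicle, 96.7, 37.1 and 46.3 in control mice given AICAR, 69.2, 25.9, 32, 65.2 and 62.5 in HSALR mice given vehicle and 17.1, 8.08, 130.4, 16.8 and 33.5 in HSALR mice given AICAR. The vehicle groups of the 2 genotypes did not overlap, with a log2 difference of -1.79 ± 0.68 (SE), adjusted p = 0.0621. Exons of Slc25a25 overlap Naif1 on the other strand. The citrate carrier Slc25a1 varied similarly, from 2.74 to 21.1 CPM over all mice, and its AICAR effect was -1.24 ± 0.50 (SE), adjusted p = 0.115 in control mice. Slc25a10, Slc25a13, Slc25a14, Slc25a15, Slc25a16, Slc25a26, Slc25a27, Slc25a34, Slc25a40, Slc25a44 and Slc25a45 were also not called.

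For 9 pairs of carriers of the same or a like substrate, and for Slc25a34 with Slc25a35, to which no substrate is assigned here, the share of the first in the pair's CPM per kb was compared between groups by two-sided exact permutation tests, 10 pairs in all in 4 comparisons. Of the 40 tests, 8 had an exact p under 0.05 and 0 had one after Benjamini-Hochberg adjustment over the 40 tests. The smallest p these tests can give is 0.0179 for 5 against 3 mice, 0.00794 for 5 against 5 and 0.1 for 3 against 3. No test of 3 against 3 could therefore pass, and the others could pass after adjustment only if several reached their floor together. The lack of adjusted calls is thus no evidence that the shares were equal. Slc25a37 made up 27.6% of the mitoferrin pair in control mice and 33.8% in HSALR mice given vehicle (exact p = 0.0179, adjusted p = 0.179), and 26.8% and 31.9% after AICAR (exact p = 0.0179, adjusted p = 0.179). The genotypes did not overlap in either comparison. Slc25a33 made up 49.1% of the pyrimidine pair in control mice given vehicle, 67.9% in HSALR mice given vehicle, 68.3% in control mice given AICAR and 66.5% in HSALR mice given AICAR. The 2 vehicle groups did not overlap (exact p = 0.0357, adjusted p = 0.179). Slc25a23 made up 14.3% of its sum with Slc25a25 in control and 33.8% in HSALR mice given vehicle (exact p = 0.0179, adjusted p = 0.179), and Slc25a24 5.7% and 26.3% of its sum with Slc25a25 (exact p = 0.0357, adjusted p = 0.179). These 2 results share Slc25a25 and the same mice.

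In 4 of the remaining pairs 1 gene gave over 90% of the sum in every group. Slc25a4 made up 98.8% to 98.95% of its pair with Slc25a5 in the group means, Slc25a12 99.5% to 99.8% of its pair with Slc25a13, and Slc25a10, whose exons overlap the antisense gene Gm11788, 0.831% to 1.23% of its pair with Slc25a11. Slc25a39 made up 91.3% to 94.2% of its pair with Slc25a40, with 92.1% after vehicle and 93.7% after AICAR in HSALR mice (exact p = 0.0238, adjusted p = 0.179). Slc25a12 made up 99.7% after vehicle and 99.8% after AICAR in HSALR mice (exact p = 0.0159, adjusted p = 0.179). Slc25a42 made up 54.7% of its pair with Slc25a16 in control mice given AICAR and 49.4% in HSALR mice given AICAR (exact p = 0.0357, adjusted p = 0.179). Slc25a34 made up 75.9% to 82.8% of its pair with Slc25a35.

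**Figure D5:**
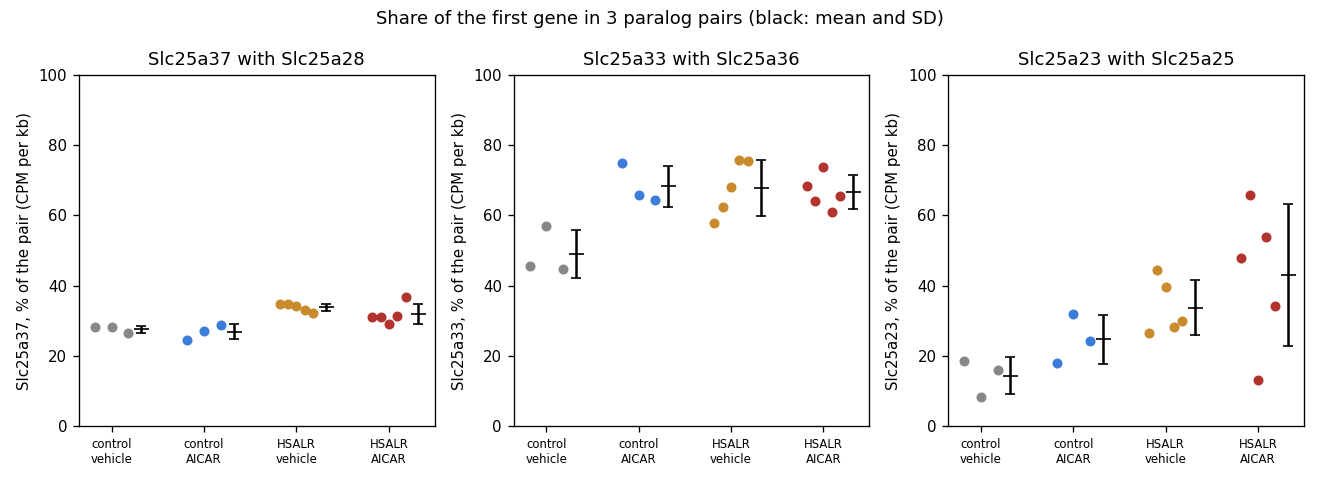
Share of the first gene in the summed CPM per kb of 3 carrier pairs, in each mouse by group, with group means and SDs in black. Slc25a37 takes a larger share in HSALR than in control mice, and the share of Slc25a33 is lowest in control mice given vehicle (mean 49.1%).

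Among carriers of the family under other symbols, the uncoupling protein Ucp2 had the largest genotype difference. It stood at 20.4, 26.2 and 23.4 CPM in control mice given vehicle, and at 49.8, 50.7, 62.7, 80.1 and 75.9 in HSALR mice given vehicle, at 1.45 ± 0.18 (SE), adjusted p = 3.24e-05. After AICAR it stood at 26.9, 24.4 and 21 CPM in control mice and at 29.4, 36.2, 41.1, 27.7 and 28.8 in HSALR mice, a fall at -0.97 ± 0.15 (SE), adjusted p = 0.000268 in HSALR mice. Every HSALR mouse given vehicle lay above all other mice. Ucp2 is also expressed by leukocytes. Their 5 marker genes summed to 128.2 to 173.2 CPM (median 150.7) in HSALR mice given vehicle and to 133.3 to 227.5 CPM (median 147.9) after AICAR. Of the 5, 1 was lower and 0 higher (20% and 0%, against 13% and 13.7% of all genes tested), with a median log2 fold change of 0.08. After vehicle they summed to 108.4 to 148.7 CPM in control mice, and 2 of 5 were higher in HSALR than in control mice (40%, against 15.4% of all genes, median 0.12). The 8 epidermal genes were all lower after AICAR in HSALR mice (100%, against 13% of all genes, median log2 fold change -9.84), as Ucp2 was. Between the genotypes after vehicle, 0 of the 8 were called (median 0.92). In a fit chosen after the data were seen, without the 6 libraries above 1 CPM of Krt14, the AICAR change of Ucp2 in HSALR mice was -0.61 ± 0.21 (SE), adjusted p = 0.124, and its genotype difference after vehicle 1.09 ± 0.24 (SE), adjusted p = 0.0303, both resting on mouse S451 alone for HSALR mice given vehicle. With the epidermal covariate they were -0.85 ± 0.20 (SE), adjusted p = 0.0134 and 1.40 ± 0.19 (SE), adjusted p = 0.000125. The part of either cell type in the values of Ucp2 was not tested. Ucp3, the uncoupling protein of muscle, was not called in any comparison, with group means from 94.7 to 147.1 CPM. The carrier relatives Mtch1 and Mtch2 of the outer membrane rose after AICAR in both genotypes, Mtch2 at 0.27 ± 0.05 (SE), adjusted p = 0.000629 in HSALR mice and 0.26 ± 0.06 (SE), adjusted p = 0.00938 in control mice.

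Carriers are inserted into the inner membrane by the TIM22 path. Of 13 genes of the import path (small TIM chaperones, the TIM22 complex and TOM subunits), 6 were higher in HSALR than in control mice after vehicle (46.2%, against 15.4% of all genes tested) and 5 after AICAR (38.5%, against 12.2%), and 0 were lower in either comparison (medians 0.19 and 0.15). Against vehicle, AICAR raised 4 in HSALR mice (30.8%, against 13.7%) and 2 in control mice (15.4%, against 8.4%). Timm10, a chaperone that guides carriers across the intermembrane space, stood at 15.1 ± 0.717 CPM (SD, n = 3) in control and 22 ± 1.33 CPM (SD, n = 5) in HSALR mice given vehicle, at 0.55 ± 0.11 (SE), adjusted p = 0.00153, and Timm9 at 0.49 ± 0.10 (SE), adjusted p = 0.00141. Of 8 genes of the calcium uniporter and related transport, 4 were higher in HSALR than in control mice after vehicle and 4 after AICAR (50% each, against 15.4% and 12.2% of all genes). Among those called after vehicle was the gatekeeper Micu2 at 0.44 ± 0.07 (SE), adjusted p = 0.000498. In each genotype 1 gene of the list was higher after AICAR than after vehicle (12.5%, against 13.7% of all genes in HSALR and 8.4% in control mice).

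Of 7 genes that take part in moving phosphate energy out of mitochondria, the porins Vdac2 and Vdac3 rose after AICAR in HSALR mice (28.6%, against 13.7% of all genes), Vdac2 at 0.40 ± 0.05 (SE), adjusted p = 8.33e-05, and Vdac2 also in control mice at 0.30 ± 0.07 (SE), adjusted p = 0.00813. Between the genotypes, 0 of the 7 were higher and 1 lower in HSALR mice after vehicle (0% and 14.3%, against 15.4% and 11.5% of all genes), and 2 were higher and 1 lower after AICAR (28.6% and 14.3%, against 12.2% and 9.64%). The lower gene was the sarcomeric mitochondrial creatine kinase Ckmt2 in both, at -0.59 ± 0.14 (SE), adjusted p = 0.00498 after vehicle and at -0.47 ± 0.14 (SE), adjusted p = 0.0243 after AICAR. The higher genes were Vdac1 at 0.19 ± 0.06 (SE), adjusted p = 0.0346 and Vdac2 at 0.18 ± 0.06 (SE), adjusted p = 0.0453. Of 7 genes of the pyruvate carrier and the sideroflexins, 2 were higher and 1 lower after AICAR in HSALR mice (28.6% and 14.3%, against 13.7% and 13% of all genes), and 1 was higher and 1 lower in control mice (14.3% each, against 8.4% and 4.77%). The pyruvate carrier subunit Mpc2 rose at 0.28 ± 0.05 (SE), adjusted p = 0.00154 and 0.24 ± 0.07 (SE), adjusted p = 0.036 in HSALR and control mice. The serine transporter Sfxn1 rose in HSALR mice at 0.72 ± 0.12 (SE), adjusted p = 0.000483. Of 4 mitochondrial ABC transporters, 3 were higher after AICAR in HSALR mice (75%, against 13.7% of all genes) and 2 in control mice (50%, against 8.4%), with Abcb10, which is known to act with mitoferrin-1 in haem synthesis, at 0.46 ± 0.06 (SE), adjusted p = 4.37e-05 and 0.34 ± 0.07 (SE), adjusted p = 0.00655.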

How the data were processed

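Gastrocnemius RNA of 16 mice was sequenced from stranded poly(A) libraries. The authors aligned the reads to mm10 with STAR 2.5.2a and deposited raw counts, made as reads starting in any RefSeq exon of an Entrez gene, with 1 location kept for reads of several equally good places. Whether counting used the strand is not given in the sources used here. Library totals lay between 64890014 and 81987726 counts, which leaves the spread between mice as the main error.

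Symbols were matched for 24374 of 24454 gene IDs. The 16 libraries were fitted together in edgeR 4.0.16 (R 4.3.3) with TMM scaling, filterByExpr over the 4 groups and its quasi-likelihood F test. Benjamini-Hochberg adjustment ran over 15487 genes, with adjusted p under 0.05 as the threshold. CPM were computed with TMM-scaled totals. DESeq2 1.42.0, limma voom 3.58.1, the likelihood ratio test, other scalings and filters, an epidermal covariate and fits without single mice or without epidermal libraries were alternatives. Counts were simulated with 200 genes changed by 1 on the log2 scale, and no smaller change was simulated. For HSALR against control, 200 were recovered after vehicle (5 false calls among 15306 genes tested) and 199 after AICAR (12 among 15310). For AICAR, 200 were recovered in HSALR mice (15 among 15312) and 193 in control mice (7 among 15323). For the difference between the AICAR effects, 175 were recovered (10 among 15335). The median size of the called members' AICAR changes was 0.36 in HSALR and 0.53 in control mice. Whether the simulated counts matched these libraries in spread between mice or in epidermal RNA was not tested. The recoveries and false calls are thus no measure of power or error for the members, including for the difference between the AICAR effects. The rule for named genes took the 5 higher and 5 lower called members of largest change in each comparison, Slc25a3, Slc25a4, Slc25a5, Slc25a11, Slc25a12, Slc25a20, the 5 highest per length, the members of tested pairs and those beside the count limit, and up to 4 called partners a list by size of change. The other called members that are named, Slc25a1, Ucp3 and the uncalled values beside them were named after their values were seen. The members and gene lists were chosen with earlier results of these data known. Mouse IDs are unique, so each library is 1 animal. Promoter windows and gene positions are from RefSeq, and exon overlaps from GENCODE M21 (GRCm38.p6). The values of 1 carrier and 1 partner gene are not reported here, although both stay in all counts, medians and fits.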

Additional observations from a re-analysis of the deposited data

Results flagged for a closer look

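Over 37 of the 38 members and the 10 pairs, in groups of 5 mice, 6 values stood apart from the other 4 by Dixon's criterion. Of 94 such groups tested, chance alone would flag 4.7. Of the 6 values, 5 came from mouse S460, an HSALR mouse given AICAR. There Slc25a25 was at 130.4 CPM (8.08 to 33.5 in the other 4), Slc25a22 at 14.6 CPM (8.85 to 10.4), Slc25a46 at 79.6 CPM (73.2 to 74.7), Slc25a51 at 89.9 CPM (93.3 to 94.7), and the share of Slc25a4 in its pair with Slc25a5 at 98.7% (98.96% to 99.1%). Slc25a5 stood apart in HSALR mouse S459 given vehicle, at 42.4 CPM (51.9 to 53.2).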

How the results depend on the processing

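Without the 6 libraries above 1 CPM of Krt14, the count of called members went from 9 to 1 for HSALR against control after vehicle, from 19 to 5 for AICAR in HSALR mice and from 13 to 6 for AICAR in control mice. With the epidermal covariate it was 9 for AICAR in HSALR mice. The change of Slc25a17 after AICAR in HSALR mice turned from -0.36 to 0.0131 (adjusted p = 0.978) without these libraries. Fewer mice entered that fit, and the cause was not tested otherwise. Over fits without 1 mouse the counts were 5 to 10 and 4 to 13 for HSALR against control after vehicle and after AICAR, 16 to 19 and 8 to 11 for AICAR in HSALR and in control mice, and 0 for the difference between the AICAR effects. Of the values of single members under other alternatives, 530 kept their direction and side of the threshold, 81 missed the threshold and 1 reversed. Without 1 mouse, 326 did so and 94 missed it. With only the compared groups fitted, 9 of the 13 calls for AICAR in control mice were kept. Those of Slc25a3, Slc25a4, Slc25a23 and Slc25a32 were lost. No paired analysis was possible because the mouse IDs are unique to each library.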
